A study of Mus musculus with 9 samples.

Results

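RNA from tissue beside a photothrombotic infarct of Pushen-treated mice was set against RNA from the matching tissue of sham-operated mice, both taken 28 days after surgery. The contrast uses 6 of the study's 9 RNA-seq libraries, the 3 labelled Pushen and the 3 labelled sham, and runs over all 55401 genes of the deposited table, of which 21807 are protein-coding. The libraries were chosen by their labels alone. Photothrombosis, PT in the labels, is a stroke model in which light activates a dye inside surface vessels of the cortex and clots close them. The Pushen mice had the infarct and received Pushen, a commercial drug dissolved in ultrapure water, by gavage from 24 h after surgery for 28 days. The labels give the dose as 391, 392 and 393 mg/kg for Pushen libraries 1, 2 and 3. The sham mice had no infarct and were gavaged with the same ultrapure water. All 9 libraries carry the genotype label WT, and the labels used here give no strain, sex or age. The contrast therefore holds the infarct and the drug together, and what each contributes cannot be told apart within it. The 3 remaining libraries, from infarcted mice given ultrapure water (PT), share the fit's estimate of spread and are set beside the members only where their values are named. The labels name no animals. A p-value here therefore sets the difference between groups only against the spread among libraries of a group, which may be technical.

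After a focal infarct of the cortex, astrocytes beside the lesion become reactive and wall it off with intermediate filaments. Microglia and incoming macrophages clear debris, load lipid from broken membranes and present antigen, and fibroblasts lay down a collagen scar continuous with the meninges. Interferons, released by cells that sense nucleic acids or by lymphocytes, switch on a set of antiviral genes through STAT and IRF factors that bind a short element beside the gene start. Neurons at the border can lose synapses or die, which lowers their RNA in a bulk sample. In such a sample, fewer cells of a type and less RNA per cell cannot be told apart, and the same holds for more cells and more RNA per cell.

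Testing covered 16740 genes whose FPKM (fragments scaled to transcript length and library size) averaged 0.5 or more over the 9 libraries. Of these, 2718 differed between Pushen and sham at an adjusted p under 0.05, or 16.2%. The test was edgeR's quasi-likelihood test with Benjamini-Hochberg adjustment, and every adjusted p given here comes from it. Genes called higher numbered 2261 (13.5%) and genes called lower 457 (2.73%). List counts below are to be read against these shares. The lists and their members were chosen with earlier results of these data known, so the counts describe the lists and are no test. Genes near 0 in sham could pass the 0.5 FPKM filter only through the infarct libraries. List counts of rises that include such genes are thus partly set by the filter. The macrophage, chemokine, interferon-induced GTPase, B cell and T cell lists hold some of them. So do the type I interferon, disease-associated microglia, leukocyte adhesion, matrix protease, cholesterol efflux and cell death lists, and further lists may too. With a change of at least 2-fold, 1313 genes were higher (7.84%) and 21 were lower (0.125%). All 3 Pushen libraries lay above all 3 sham libraries in 3863 genes (23.1%) and below them in 3283 (19.6%). Of the 2718 called genes, 2695 had groups that did not overlap in this way. The split leans on the scaling, since quantile normalization with voom called 1589 genes higher and 1254 lower, 892 and 220 of them by at least 2-fold. The median log2 fold change over all tested genes was -0.01, and it was -0.13 with quantile normalization.

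**Figure D1:**
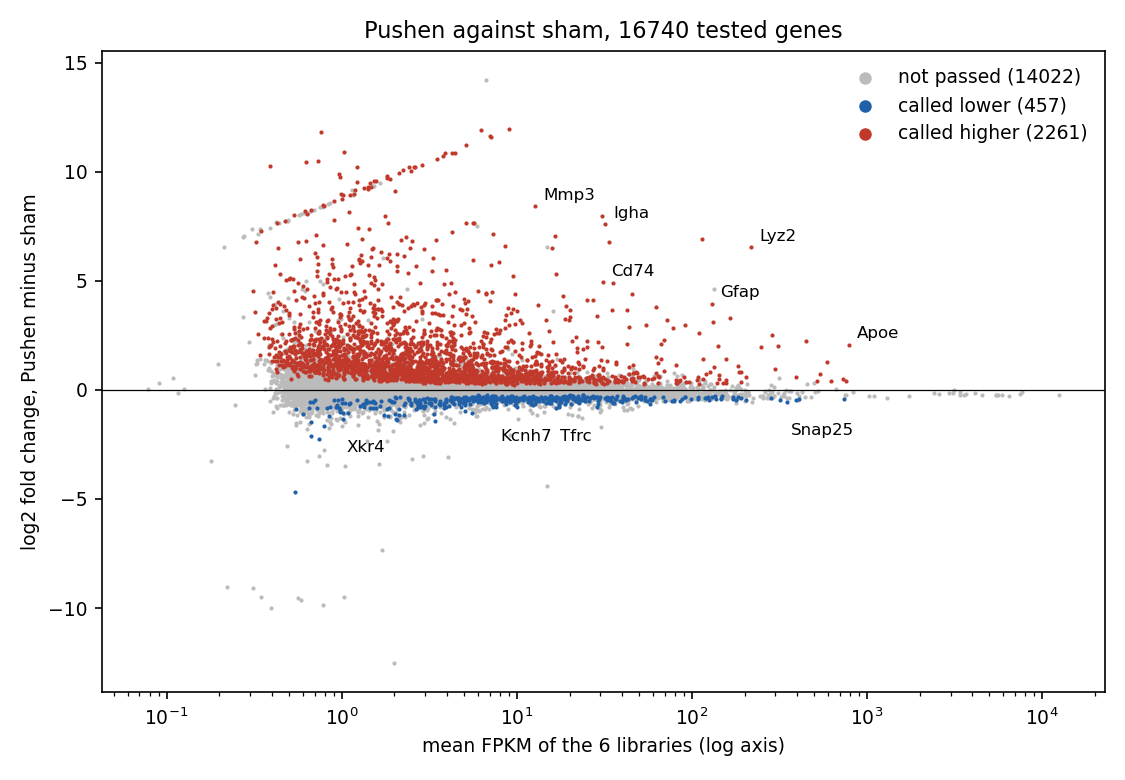
Each point is a tested gene, placed by its mean FPKM over the 6 libraries (log axis) and its log2 fold change, Pushen minus sham, with genes called higher in red, genes called lower in blue and all others in grey. The red cloud reaches far upward while the blue points stay close to 0, and the straight diagonal of points at the upper left is made of genes with no sham count, whose fitted values depend on the prior count.

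The libraries held between 57437342 and 73499628 counts, with 7.23% to 8.92% of them from mitochondrial genes. Per gene, replicates of a group differed by a chi-square of 38.1 to 94.6 among these 6 libraries, far beyond counting noise. The first principal component of the 6 libraries carried 69.4% of the variance with scores of -61.8, -59.2 and -50.4 for sham and 68.0, 78.0 and 25.5 for Pushen. Library 3 of the Pushen group thus stood closest to sham, and it was the lowest of the 3 Pushen libraries in 1994 of the 2261 genes called higher (88.2%). The labelled tissue is brain, while the labels' extraction text names retinas. Only 2 of 18 listed photoreceptor genes were expressed enough to be tested. The eye gene Rpe65, outside that list, was tested too and is given below. The neuronal vesicle protein gene Snap25 averaged 408 FPKM in sham (in the contrast not called without sham 1, sham 2, sham 3, PT 2, Pushen 1 or Pushen 2, with a highest adjusted p of 0.14). As a gene of neurons in general, Snap25 cannot tell brain from retina. Leaving out 1 library at a time moved the number of called genes between 1538 (without sham 2) and 3736 (without PT 1), and of the 537 list genes that rose, 416 were called in all 9 of these fits. Of the 52 list genes that fell, 7 were. Values below are given for libraries 1, 2 and 3 in that order, fold changes are fitted log2 fold changes of Pushen over sham with 1 standard error, and "rose" or "fell" is used only of called genes. Directions given for gene lists were the same with size factors, library size alone and quantile normalization, except where stated.

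The largest rises among protein-coding genes with sham counts were in matrix-cutting enzymes and in genes of phagocytes. Mmp3, a secreted protease that cleaves many matrix proteins, was at 0, 0.1 and 0.11 FPKM in sham and 28.8, 41.6 and 6.01 FPKM in Pushen. Its log2 fold change was 8.41 ± 0.93 (adjusted p = 0.00076), and the lowest Pushen library was still far above the highest sham library. Mmp13, a collagenase, rose by 9.11 ± 1.07 (adjusted p = 0.00095) from 4 sham counts in all, and Mmp12, the macrophage elastase, by 8.17 ± 0.86 (adjusted p = 0.00069). These sizes lean on the few sham counts: without sham 3 the fitted change was 12.67 for Mmp13 and 13.23 for Mmp12, and without sham 2 it was 7.56 for Mmp12. Cd5l, a protein secreted by macrophages, measured 0, 0.49 and 0.18 FPKM in sham and 94.7, 81.2 and 8.6 FPKM in Pushen, so that library 3 stood far below the other Pushen libraries. Its log2 fold change was 7.99 ± 1.15 (adjusted p = 0.0022), and 9.29 without sham 2. Lgals3, a galectin of phagocytes, measured 0.13, 0.18 and 0.38 FPKM in sham and 45.2, 41.4 and 11.9 FPKM in Pushen (log2 fold change 7.05 ± 0.6, adjusted p = 0.00055). Atp6v0d2, a proton pump subunit of macrophages and osteoclasts, rose by 7.67 ± 0.9 (8.59 without sham 3). Wfdc17, a small secreted protein of myeloid cells, rose by 7.13 ± 0.81 (6.52 without sham 2 and 8.09 without sham 3), and Cxcl1, a neutrophil-drawing chemokine, by 7.12 ± 0.89 (10.65 without sham 2). Slamf7, a leukocyte surface receptor, and Oas1g, of the interferon-induced oligoadenylate synthetase family, each rested on 4 sham counts and rose by 8.19 ± 0.96 (7.6 without Pushen 2 and 11.76 without sham 3) and 7.77 ± 0.97 (11.35 without sham 1). Each of these 12 largest rises (with Itgax and Zbp1, described below) kept its call when any 1 library was left out.

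By the amount of RNA gained, the leading gene was Apoe, the lipid carrier that glia secrete. It measured 180.0, 342 and 349 FPKM in sham and 1434, 1551 and 855 FPKM in Pushen, a log2 fold change of 2.08 ± 0.33 (adjusted p = 0.0035). Lyz2, the lysozyme of macrophages, was at 3.33, 4.18 and 5.69 FPKM in sham and 522, 653 and 113 FPKM in Pushen, so a gene near the bottom of the sham profile reached the level of abundant brain transcripts in Pushen libraries 1 and 2. Its log2 fold change was 6.54 ± 0.63 (adjusted p = 0.00055). Ptgds, the prostaglandin D synthase of meninges and oligodendrocytes, was at 379, 319 and 304 FPKM in sham and 906, 864 and 795 FPKM in Pushen, with little spread among the Pushen libraries (log2 fold change 1.29 ± 0.13, adjusted p = 0.00056). B2m, the light chain of MHC class I, rose from 81.7 ± 9.38 to 491 ± 154 FPKM (mean ± SD, n = 3 libraries a group), Ftl1, the ferritin light chain, from 117 ± 9.03 to 499.8 ± 209 FPKM, and the lysosomal protease gene Ctsd from 98.4 ± 3.74 to 399.7 ± 156 FPKM. Cst3, a cathepsin inhibitor, and Cpe, a peptide-processing enzyme of neuroendocrine and glial cells, gained much RNA on a high sham level, with log2 fold changes of 0.72 ± 0.18 and 0.39 ± 0.1. Those last 2 calls were less stable: Cst3 was not called without sham 1, sham 2, sham 3 or Pushen 2, with a highest adjusted p of 0.1, and Cpe was not called without sham 1, sham 2, sham 3, Pushen 1 or Pushen 2, with a highest adjusted p of 0.12.

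Astrocyte filament and reactive surface genes were higher in Pushen: 21 of 25 tested genes rose, against 13.5% of all tested genes, with a median log2 fold change of 2.71. Gfap, the filament protein of astrocytes (chromosome 11, 102887336 to 102897200 in GRCm38), was at 12.4, 12.7 and 20.3 FPKM in sham and 301, 295 and 141 FPKM in Pushen. Sham library 3 was the highest of its group and Pushen library 3 the lowest of its own, and the groups stayed well apart. The log2 fold change was 3.95 ± 0.41 (adjusted p = 0.00067). Vim, vimentin, the filament that reactive astrocytes share with microglia and fibroblasts, measured 4.28, 3.87 and 3.04 FPKM in sham and 39.3, 44.5 and 24.5 FPKM in Pushen (log2 fold change 3.2 ± 0.27, adjusted p = 0.00055). Lcn2, a secreted iron-siderophore binder, measured 0.15, 0.22 and 0.36 FPKM in sham and 17.4, 17.9 and 6.75 FPKM in Pushen (log2 fold change 5.71 ± 0.51, adjusted p = 0.00055). Timp1, an inhibitor of matrix proteases, rose by 4.4 ± 0.46, Aspg, an asparaginase, by 2.85 ± 0.28, and Ggta1, a glycosyltransferase, by 2.71 ± 0.28. The intermediate filament genes Des (0.47 ± 0.24) and Nes (0.21 ± 0.16) did not pass, nor did Fkbp5 (0.55 ± 0.19, called without Pushen 3, with a lowest adjusted p of 0.012) and Synm (0.24 ± 0.09, called without Pushen 3, with a lowest adjusted p of 0.017).

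Genes of resting astrocyte function moved less. Of 20 tested genes, 8 rose and none fell, and the count was 5 without sham 1 or Pushen 2 and 4 without sham 2. Aqp4, the water channel of astrocyte endfeet, was at 9.95, 8.14 and 10.3 FPKM in sham and 27.1, 31.5 and 18.4 FPKM in Pushen, with every Pushen library above every sham library. Its log2 fold change was 1.37 ± 0.22 (adjusted p = 0.0035). Slc1a3, a glutamate uptake carrier, rose by 0.59 ± 0.1, Mlc1, a membrane protein of the endfeet, by 0.75 ± 0.15 and Gjb6, a gap junction connexin, by 0.42 ± 0.08. The principal glutamate carrier gene Slc1a2 did not pass (0.02 ± 0.1), with 189, 164 and 175 FPKM in sham and 174, 208 and 178 FPKM in Pushen. Aldh1l1 (0.04 ± 0.08) and Kcnj10 (0.31 ± 0.12), both used as general astrocyte markers, did not pass either.

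Microglial genes split by the state they mark. All 25 tested genes of the disease-associated microglia list rose, with a median of 2.89. The homeostatic list gave 13 rises of 20, a median of 0.91 and no fall. Its lowest change was -0.82, and in 1 of its genes every Pushen library was below every sham library. Its rises numbered 10 without Pushen 1 or Pushen 2. In that list 1 gene fell without Pushen 2, without PT 1, with quantile normalization and with DESeq2. Spp1, osteopontin, was at 4.16, 3.51 and 4.16 FPKM in sham and 100.5, 119 and 40.8 FPKM in Pushen (log2 fold change 4.38 ± 0.39, adjusted p = 0.00055). Trem2, the lipid receptor that drives the state, measured 1.52, 1.77 and 1.92 FPKM in sham and 14.9, 12.4 and 6.65 FPKM in Pushen (log2 fold change 2.63 ± 0.3, adjusted p = 0.0008). Cd68, an endosomal glycoprotein of phagocytes, stood at 4.92, 4.73 and 4.81 FPKM in sham and 83.4, 83.3 and 29 FPKM in Pushen (log2 fold change 3.68 ± 0.38, adjusted p = 0.00064). The 3 sham values of Cd68 were nearly the same, while its Pushen library 3 was far below libraries 1 and 2. Gpnmb, a glycoprotein of lipid-laden phagocytes, rose by 6.78 ± 0.64, Clec7a, a receptor for fungal glucans, by 6.62 ± 0.63, Lilrb4a, an inhibitory receptor, by 6.15 ± 0.53, Cd52 by 4.09 ± 0.35 and the integrin gene Itgax by 7.95 ± 0.93 (7.34 without sham 2 and 13.33 without sham 3, which held nearly all its sham counts). The smallest change in the disease-associated list was 1.07.

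Within the homeostatic list, Aif1, the calcium-binding protein IBA1 of microglia and macrophages, was at 1.69, 1.45 and 1.48 FPKM in sham and 7.87, 8.3 and 5.57 FPKM in Pushen (log2 fold change 2.15 ± 0.19, adjusted p = 0.00055). Itgam, the complement receptor integrin, rose by 1.68 ± 0.2, Csf1r, the receptor that microglia need to survive, by 1.4 ± 0.21 and Tmem119, a membrane protein of resident microglia, by 1.08 ± 0.15. Several genes of surveying microglia did not pass. P2ry12, the ADP receptor, was at 9.75, 5.7 and 8.46 FPKM in sham and 9.06, 5.84 and 6.87 FPKM in Pushen, and the groups overlapped (-0.21 ± 0.25). Cx3cr1, the fractalkine receptor, was at 7.14, 0.86 and 1.49 FPKM in sham and 2.55, 2.12 and 1.94 FPKM in Pushen, and its sham library 1 stood apart from the other sham libraries (log2 fold change -0.6 ± 0.68). Siglech (0.42 ± 0.15), Gpr34 (0.54 ± 0.18) and Olfml3 (-0.1 ± 0.33) did not pass.

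**Figure D2:**
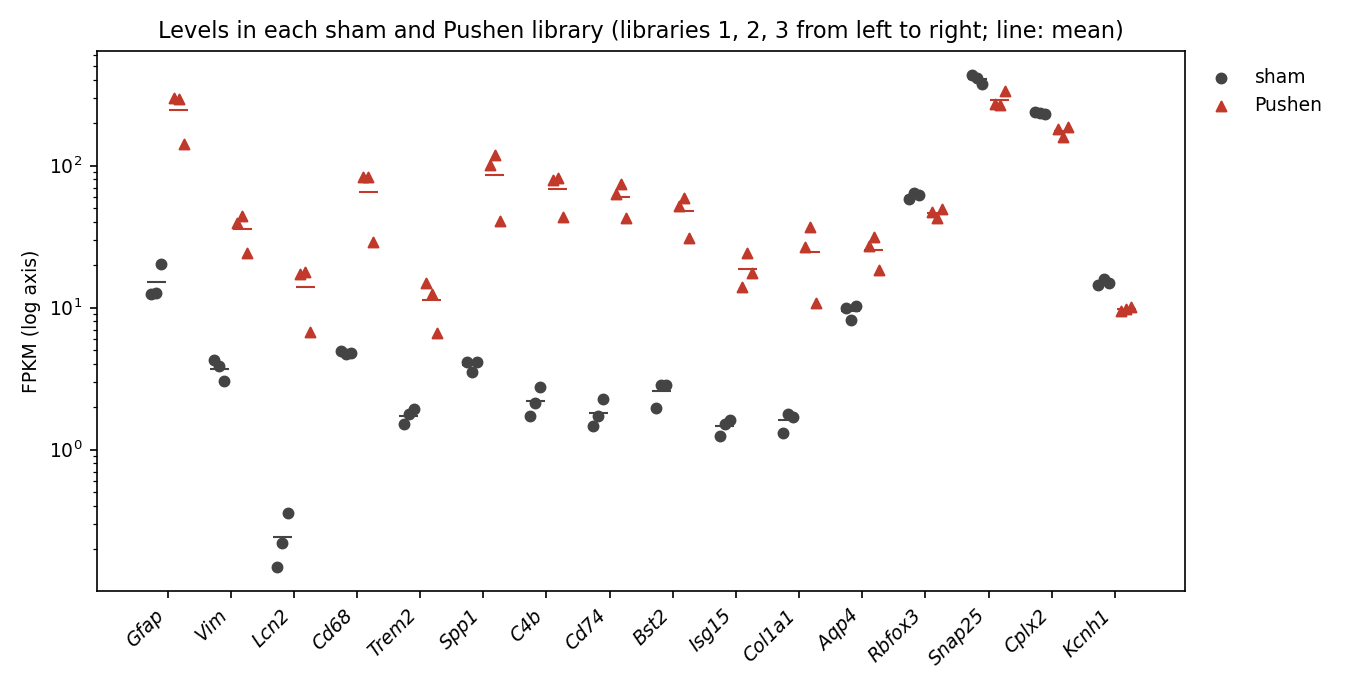
FPKM (log axis) of 16 genes in each library, with sham as grey circles, Pushen as red triangles, libraries 1, 2 and 3 from left to right and a line at each group mean. From Gfap to Aqp4 every Pushen library is above every sham library and Pushen library 3 is the lowest triangle in all of them except Isg15, while Rbfox3, Snap25, Cplx2 and Kcnh1 at the right lie lower in Pushen by less than 2-fold.

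Macrophage genes rose in 12 of 13 tested cases (median 2.91), and 7 further listed genes, with the receptor genes Cd163 and Lyve1 among them, were under the expression filter. Members near 0 in sham, such as Ms4a7, passed that filter only through the infarct libraries, so the share is partly set by it. Ms4a7, a membrane protein of macrophages at brain borders, measured 0, 0.04 and 0.04 FPKM in sham and 3.89, 4.01 and 1.13 FPKM in Pushen (log2 fold change 6.51 ± 0.76, adjusted p = 0.00093). Mrc1, the mannose receptor, rose by 2.31 ± 0.22, the scavenger receptor genes Msr1 and Cd36 by 5.1 ± 0.52 and 5.25 ± 0.53 (5.86 without sham 3), and Ly6c2, of inflammatory monocytes, by 2.54 ± 0.28. Pf4, a chemokine of platelets and border macrophages, measured 0.62, 0.06 and 0.43 FPKM in sham and 1.31, 0.91 and 0.85 FPKM in Pushen and did not pass (1.36 ± 0.59, adjusted p = 0.15), although its groups did not overlap. Clec4d, a myeloid lectin with no sham count, was at least 58.9-fold higher in Pushen, with the bound set at 3 counts per sham library. Evi2b, a leukocyte membrane protein, was at least 57.9-fold higher by the same bound and Acod1, the itaconate-making enzyme of activated macrophages, at least 50.9-fold higher.

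Receptors that recognise antibody-coated targets rose with their signalling partners, in 19 of 22 tested genes (median 2.11). Fcer1g, the shared signalling chain of Fc receptors, was at 3.48, 3.51 and 3.33 FPKM in sham and 45, 46.7 and 18.1 FPKM in Pushen (log2 fold change 3.33 ± 0.34, adjusted p = 0.00062). The high-affinity receptor gene Fcgr1 rose by 3.46 ± 0.38, Fcgr4 by 6.07 ± 0.72 (7.22 without sham 3) and the inhibitory receptor gene Fcgr2b by 3.81 ± 0.37. Ptpn6, a phosphatase that damps them, rose by 2.68 ± 0.26. Mfge8 (0.21 ± 0.13), a bridge between dying cells and phagocytes, and Elmo1 (-0.16 ± 0.09), an engulfment adaptor, did not pass. NADPH oxidase genes rose as a group. Cyba, a membrane subunit, measured 2.68, 2.51 and 3.08 FPKM in sham and 46.1, 48.1 and 17.6 FPKM in Pushen (log2 fold change 3.68 ± 0.36, adjusted p = 0.00055), and the catalytic subunit gene Cybb (5.36 ± 0.64) and the cytosolic subunit genes Ncf1 (2.11 ± 0.23) and Ncf4 (2.93 ± 0.33) rose with the GTPase gene Rac2 (3.16 ± 0.34). In all, 9 of 13 tested genes of that list rose, and the nitric oxide synthase genes Nos1 (0.34 ± 0.42) and Nos3 (0.38 ± 0.15) did not pass. Myeloid transcription factor genes rose in 13 of 18 cases. Spi1, which encodes PU.1, rose by 2.72 ± 0.29 (adjusted p = 0.00075), Runx1 by 3.15 ± 0.35, Irf8 by 2.56 ± 0.31 and Cebpd by 2.46 ± 0.33, while Batf3 (0.35 ± 0.31) and Runx2 (-0.02 ± 0.16) did not pass.

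Complement genes rose in 19 of 21 tested cases (median 2.64). C1qa, a chain of the initiating molecule C1q, was at 24.2, 25.5 and 29.4 FPKM in sham and 286, 279.7 and 148 FPKM in Pushen (log2 fold change 3.1 ± 0.29, adjusted p = 0.00055). Its partner chains gave like values, 2.96 ± 0.28 for C1qb and 3 ± 0.29 for C1qc. C4b, the next component, measured 1.73, 2.13 and 2.75 FPKM in sham and 79.7, 81.8 and 43.3 FPKM in Pushen (log2 fold change 4.88 ± 0.37, adjusted p = 0.00055), and its reads could be shared with the near-identical C4a. C3, the central component, was at 0.01, 0.18 and 0.79 FPKM in sham and 35.2, 49 and 9.94 FPKM in Pushen, so that sham library 3 held most of the sham signal and still lay far below every Pushen library. Its log2 fold change was 6.53 ± 1.1 (adjusted p = 0.0045), and 8.3 without sham 3. The regulator gene Serping1 (3.84 ± 0.4) and the receptor gene C3ar1 (3.47 ± 0.37) rose too. Masp1, of the lectin pathway, did not pass (-0.1 ± 0.14).

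Lysosomal genes rose in 24 of 28 tested cases, by less than the surface receptors (median 1.4). Ctss, the cathepsin of antigen-presenting cells, was at 28.7, 27 and 31 FPKM in sham and 358, 398 and 146 FPKM in Pushen (log2 fold change 3.31 ± 0.34, adjusted p = 0.00066). Ctsc rose by 2.76 ± 0.28, Ctsz by 2.27 ± 0.28, and Grn, progranulin, by 1.76 ± 0.2. Psap, which yields the activators of sphingolipid breakdown, was among the most abundant of the list and rose by 0.49 ± 0.12 (not called without sham 1, sham 2, sham 3, Pushen 1 or Pushen 2, with a highest adjusted p of 0.1). Neu1 (-0.13 ± 0.07), Tpp1 (0.16 ± 0.27) and Ctsf (-0.05 ± 0.11) did not pass.

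MHC class II genes rose in 11 of 12 tested cases, with a median of 3.19. Cd74, the invariant chain, was at 1.47, 1.72 and 2.29 FPKM in sham and 63.2, 73.7 and 42.9 FPKM in Pushen (log2 fold change 4.96 ± 0.24, adjusted p = 0.00013). The class II chain genes H2-Aa (5.86 ± 0.41), H2-Ab1 (5.24 ± 0.41) and H2-Eb1 (4.44 ± 0.28) rose with it, as did the peptide-loading gene H2-DMb1 (3.08 ± 0.32). Rfx5, a factor that controls these genes, did not pass (0.26 ± 0.15). In the class I list 20 of 22 genes rose (median 1.59). Nlrc5, the factor that drives class I genes, measured 0.13, 0.1 and 0.11 FPKM in sham and 1.4, 2.08 and 1.37 FPKM in Pushen (log2 fold change 3.7 ± 0.23, adjusted p = 0.00032). The immunoproteasome subunit genes Psmb8 and Psmb9 rose by 2.88 ± 0.24 and 2.93 ± 0.24, while Psmb10, the third such subunit, did not (0.02 ± 0.11). H2-Q6 and H2-Q7 rose by 3.85 ± 0.2 and 3.92 ± 0.31, and these near-identical genes may share reads.

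Most interferon-induced genes rose, and over these lists Pushen library 3 was close to library 1. Of 31 tested genes of the type I interferon list 28 rose (median 3.26), and all 16 tested interferon-induced GTPase genes rose (median 3.08, the same with Gbp10 at its lower bound). In all 31 and all 16 respectively, every Pushen library lay above every sham library, against 23.1% of all tested genes. Members near 0 in sham, such as Zbp1 and Gbp10, passed the expression filter only through the infarct libraries, which partly sets these counts. Isg15, a ubiquitin-like protein, was at 1.24, 1.52 and 1.61 FPKM in sham and 14, 24.3 and 17.6 FPKM in Pushen (log2 fold change 3.61 ± 0.4, adjusted p = 0.00076), with library 1 the lowest Pushen library here. Bst2, tetherin, which holds budding viruses at the membrane, measured 1.97, 2.87 and 2.87 FPKM in sham and 52.2, 59.7 and 31 FPKM in Pushen (log2 fold change 4.14 ± 0.41, adjusted p = 0.00059). Zbp1, a sensor of unusual nucleic acids, measured 0.04, 0.01 and 0 FPKM in sham and 3.22, 5.02 and 2.71 FPKM in Pushen (log2 fold change 7.65 ± 0.68, adjusted p = 0.00055, and 9.26 without sham 1). Its 3 Pushen values lay within 2-fold of each other. Ifitm3, which blocks virus entry, rose by 3.8 ± 0.31, Sp100, a nuclear body protein, by 2.97 ± 0.25, Irf9, part of the factor that binds the response element, by 2 ± 0.18, Ifi35 by 2.54 ± 0.23 and Oas1a, a sensor of double-stranded RNA, by 4.9 ± 0.45. Gbp10, with no sham count, was at least 148-fold higher in Pushen, where library 2 held most of it (0.7, 3.38 and 0.51 FPKM). Stat2 (0.85 ± 0.26, called without PT 1 or PT 2, with a lowest adjusted p of 0.024), Cmpk2 (0.4 ± 0.12, called without Pushen 1, with a lowest adjusted p of 0.038) and Ifit2 (1.53 ± 0.78, called without PT 1, with a lowest adjusted p of 0.013) did not pass, though their Pushen libraries were above sham. The interferon genes Ifnb1 and Ifng themselves were under the expression filter.

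The gene starts of this group are shown because they carry the element the interferon-activated factor is known to bind. The core searched was GAAANNGAAA on both strands, in the 250 bases before each gene's start, with promoters from RefSeq (GRCm38.p6). It was present in 3.11% of the 11252 promoters of tested genes, in 5.96% of the 1645 promoters of genes called higher and in 2.74% of the 328 promoters of genes called lower. In the interferon-induced GTPase list it was in 9 of 10 promoters (90%) and in the type I interferon list in 9 of 22 (40.9%). Of the 47 interferon genes tested, 32 had a promoter in the table. The lists overlap with the element by their known biology, so the shares describe the lists and are no test. The 6 printed below are those of smallest p with the core, each with up to 24 bases on either side, 5′ to 3′ on the gene's strand, and capitals mark the core, which appears as its reverse complement where it lies on the opposite strand. In Oas1a and Gbp3 the capitals run over 2 overlapping cores.
Tgtp1: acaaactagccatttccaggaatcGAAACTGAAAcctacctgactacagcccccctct
Tgtp2: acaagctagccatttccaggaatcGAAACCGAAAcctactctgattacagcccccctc
Gbp2: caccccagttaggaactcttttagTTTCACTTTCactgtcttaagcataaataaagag
Gbp3: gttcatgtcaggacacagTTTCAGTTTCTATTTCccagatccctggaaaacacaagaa
Gbp7: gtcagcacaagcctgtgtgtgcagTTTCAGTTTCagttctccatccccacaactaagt
Oas1a: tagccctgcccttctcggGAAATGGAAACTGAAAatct
The positions are chr11:48992290-48992347 (minus strand) for Tgtp1, chr11:49064249-49064306 (minus) for Tgtp2, chr3:142620580-142620637 (plus) for Gbp2, chr3:142559981-142560038 (plus) for Gbp3, chr3:142530259-142530316 (plus) for Gbp7 and chr5:120907526-120907563 (minus) for Oas1a. All lie upstream of the start and outside the transcript, with the core nearest the start ending between 5 bases (Oas1a) and 68 bases (Tgtp1) before it. The core is on the gene strand in Tgtp1, Tgtp2 and Oas1a and on the opposite strand in the Gbp genes. Tgtp1 and Tgtp2, GTPases of one near-identical pair, measured 0.32, 0.28 and 0.35 and 0.4, 0.22 and 0.3 FPKM in sham and 3.36, 5.75 and 4.34 and 3.37, 6.1 and 4.53 FPKM in Pushen, with log2 fold changes of 3.75 ± 0.29 and 3.85 ± 0.32, and may share reads. Gbp2, a guanylate-binding protein that coats intracellular microbes, measured 0.7, 0.51 and 0.75 FPKM in sham and 6.48, 13.7 and 6.34 FPKM in Pushen (log2 fold change 3.69 ± 0.34, adjusted p = 0.00055). Gbp3 rose by 3.08 ± 0.3 and Gbp7 by 2.1 ± 0.17. Among other motifs, the gamma-activated site TTCNNNGAA was in 6.97% of all promoters, 7.78% of those called higher and 60% of those of the GTPase list. The AP-1 site TGANTCA was in 5.47% of all promoters and in 8.45% of those called higher. The kappa-B site was in 10.8% of all promoters, 12.9% of those called higher and 47.4% of those of the MHC class I list (9 of 19).

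The uneven rise over Pushen libraries can be read from list levels. A list level is the mean over a list's tested genes of a library's log2 level minus the sham mean. As a mean, it can lean on a few members with large changes. For disease-associated microglia the list levels were 3.87, 3.99 and 2.66, for macrophages 3.86, 4 and 2.74 and for B and plasma cells 4.47, 4.82 and 2.5. The interferon-induced GTPases gave 2.81, 3.67 and 2.92 and the type I interferon list 3.04, 3.62 and 2.92, so library 3 was at or near the level of library 1 there and well below it for microglia. Myelin genes gave 0.83, 0.66 and 0.78 and ribosomal protein genes 0.3, 0.32 and 0.24, with library 3 inside or close to the range of the others. Library 3 was the lowest Pushen library in 93.5% of the genes higher by at least 2-fold and the highest in 62.6% of the genes called lower. Over genes called higher, the median log2 level above sham was 1.28, 1.36 and 0.81 in libraries 1, 2 and 3. Whether less lesion tissue in library 3 plays a part was not tested.

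**Figure D3:**
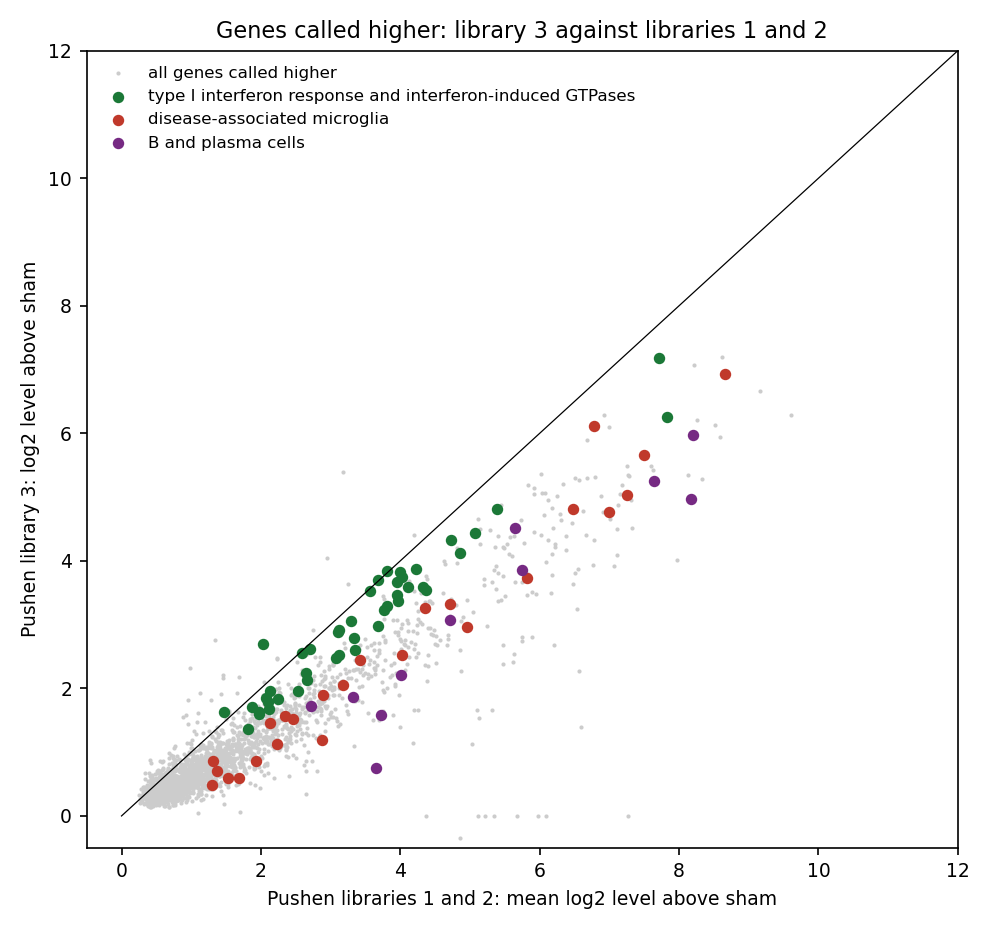
Each point is a gene called higher, placed by its mean log2 level above sham in Pushen libraries 1 and 2 (x axis) and in Pushen library 3 (y axis), with the diagonal marking equal levels. Most points lie under the diagonal, as in 88.2% of genes library 3 was the lowest, the interferon lists (green) lie on or just under it, and disease-associated microglia (red) and B and plasma cell genes (purple) lie further below.

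Chemokine genes gave a median of 4.3 over 20 tested genes, the largest median of the lists described here, and 14 of them rose (the median is the same with Ccl7 and Ccl8 at their lower bounds). Members such as Ccl7 and Ccl8, with no sham count, could be tested only through the infarct libraries, which partly sets this count. Cxcl10, an interferon-induced attractant of T cells, was at 0.04, 0.05 and 0.04 FPKM in sham and 1.79, 3.11 and 1.67 FPKM in Pushen (log2 fold change 5.26 ± 0.35, adjusted p = 0.00032). Ccl8, with no sham count, measured 14, 16.9 and 6.78 FPKM in Pushen and was at least 160.4-fold higher, and Ccl7 was at least 38.7-fold higher. Both attract monocytes. Ccl5 rose by 4.87 ± 0.51, Ccl2, the principal monocyte attractant, by 4.81 ± 0.56 and Cxcl16, a scavenger-receptor chemokine, by 3.88 ± 0.38. The chemokines that the resting brain makes did not pass: Cx3cl1, fractalkine, at -0.23 ± 0.13, and Cxcl14 at -0.09 ± 0.08. Ccl25 and Ccl17, at -0.12 ± 0.17 and -0.05 ± 0.26, did not pass either.

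Receptors for chemokines and cytokines rose in 19 of 26 cases (median 1.5). Tnfrsf1b, a TNF receptor, measured 0.73, 0.82 and 1.07 FPKM in sham and 7.06, 8.31 and 2.88 FPKM in Pushen (log2 fold change 2.73 ± 0.35, adjusted p = 0.0014). Il2rg, the shared chain of several interleukin receptors, rose by 3.3 ± 0.3 and Osmr, the oncostatin M receptor, by 2.69 ± 0.3. Il17ra (0.25 ± 0.08), Il6st (0.42 ± 0.31), Ifngr2 (0.12 ± 0.12), Ackr1 (-0.15 ± 0.12) and Il1rap (-0.06 ± 0.11) did not pass. Few of their ligands could be followed, as 11 of 25 listed cytokine genes passed the filter and the genes for interleukin 6, TNF and interleukin 10 did not. Of those tested, 7 rose, among them Tgfb1 (1.88 ± 0.26), Il1a (2.46 ± 0.47) and Csf1 (1.16 ± 0.23). Il1b, interleukin 1 beta, was at 0.13, 0.02 and 0.12 FPKM in sham and 0.85, 0.58 and 0.29 FPKM in Pushen, low throughout, and rose by 2.57 ± 0.61 (adjusted p = 0.021, not called without Pushen 1 or Pushen 2, with a highest adjusted p of 0.074). Tgfb3 (0.19 ± 0.11) and Il34 (-0.2 ± 0.11) did not pass.

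Genes of pattern recognition and the inflammasome rose in 16 of 21 cases (median 1.57). Tlr2, a receptor for bacterial lipoproteins, was at 0.17, 0.21 and 0.25 FPKM in sham and 3.26, 3.77 and 1.66 FPKM in Pushen (log2 fold change 3.69 ± 0.34, adjusted p = 0.00055). The inflammasome adaptor gene Pycard rose by 2.38 ± 0.24, Gsdmd, the pore of pyroptosis, by 2.17 ± 0.21, and Casp4, a caspase that senses lipopolysaccharide, by 3.86 ± 0.41. Nlrp3, the best-known inflammasome sensor, was under the expression filter and was not tested, and Tlr3 (0.54 ± 0.22) and Tirap (0.85 ± 0.38) did not pass. Among cell death regulators 12 of 25 rose. Mlkl, the executor of necroptosis, measured 0, 0.01 and 0.06 FPKM in sham and 0.99, 1.33 and 0.62 FPKM in Pushen (log2 fold change 5.07 ± 0.75, adjusted p = 0.0025, and 6.74 without sham 3). Casp8 rose by 2.27 ± 0.29 and Bcl2a1b, of a family of near-identical copies, by 4.49 ± 0.44. Bax (0.28 ± 0.12), Bcl2 (0.15 ± 0.11), Casp9 (0.33 ± 0.7) and Apaf1 (0.25 ± 0.21), did not pass.

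Many antibody segments were absent or scarce in sham. Of 112 tested antibody and T cell receptor segments 66 were called higher, and 42 of these had no count in any sham library. Segments with no sham count could pass the expression filter only through the infarct libraries, so the share called is partly set by the filter and supports nothing. Igha, the IgA heavy chain constant region, was at 0.12, 0.29 and 0.5 FPKM in sham and 79.8, 91.9 and 17.9 FPKM in Pushen (log2 fold change 7.61 ± 0.76, adjusted p = 0.00059), and Igkc, the kappa light chain, at 1.57, 0.54 and 3.2 FPKM in sham and 272, 349 and 57.6 FPKM in Pushen (log2 fold change 6.92 ± 0.82, adjusted p = 0.00095, and 7.66 without sham 3). Both were much lower in Pushen library 3 than in libraries 1 and 2. Cd22, a B cell receptor also made by microglia, rose by 5.24 ± 0.65 (6.07 without sham 3), Sdc1, a plasma cell proteoglycan, by 3.04 ± 0.4, and Jchain, which joins IgA and IgM units, by 4.49 ± 0.73 (3.39 without Pushen 2). In all 12 of 14 tested B and plasma cell genes rose, and quantile normalization called 6. The B cell gene Ms4a1 was under the filter, and Ighm did not pass (-0.17 ± 0.35). T and NK cell genes were scarce: 8 of 26 listed genes were tested and 4 rose. Nkg7, a granule protein of cytotoxic cells, rose by 6.11 ± 0.87 from 4 sham counts (9.65 without sham 2), Trac, the T cell receptor alpha constant region, by 3.58 ± 0.59 (4.84 without sham 3) and Lat by 2.05 ± 0.3, while Trbc1 (1.49 ± 0.87), Trbc2 (-0.3 ± 0.28) and Zap70 (0.54 ± 0.32) did not pass. Csf3r, the G-CSF receptor, rose by 2.13 ± 0.28 and was the 1 called gene of 5 tested neutrophil and mast cell genes (2 without Pushen 3), the neutrophil genes S100a8 (0.63 ± 0.44) and Ngp (-0.7 ± 0.78) not passing. No erythrocyte gene was called among 5 tested (median -0.8). The beta globin gene Hbb-bs measured 55, 36.6 and 24 FPKM in sham and 10.3, 27.3 and 27.4 FPKM in Pushen.

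Several collagen genes of the fibrotic scar rose. Col1a1, a chain of type I collagen, was at 1.32, 1.79 and 1.71 FPKM in sham and 26.6, 36.8 and 10.8 FPKM in Pushen (log2 fold change 3.87 ± 0.44, adjusted p = 0.00083). Col3a1, of type III collagen, measured 0.22, 0.2 and 0.32 FPKM in sham and 8.29, 10.9 and 3.11 FPKM in Pushen (log2 fold change 4.84 ± 0.47, adjusted p = 0.00055). For both, library 2 was the highest Pushen library and library 3 the lowest. Col1a2 rose by 3.52 ± 0.41, Col5a2 by 2.58 ± 0.31 and Col18a1, of vessel basement membranes, by 2.33 ± 0.31. Of 23 tested collagen genes 14 rose (median 0.96), a count of 8 without sham 1, sham 2, sham 3 or Pushen 2, and Col19a1 fell by 1.19 on the log2 scale (adjusted p = 0.046, not called without sham 1, sham 3, PT 2, Pushen 1, Pushen 2 or Pushen 3, with a highest adjusted p of 0.15). The basement membrane gene Col4a2 (0.23 ± 0.1), Col6a1 (0.35 ± 0.25), Col5a1 (0.08 ± 0.11), Col11a1 (-0.15 ± 0.17) and Col12a1 (0.57 ± 0.29) did not pass.

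Proteins that bundle and cross-link collagen rose in 22 of 27 cases (median 1.28). Lox, the lysyl oxidase that cross-links collagen, measured 0.2, 0.14 and 0.15 FPKM in sham and 2.96, 3.86 and 1.4 FPKM in Pushen (log2 fold change 4.01 ± 0.38, adjusted p = 0.00055). The small proteoglycan genes Dcn (3.72 ± 0.36), Lum (4.08 ± 0.44) and Fbln1 for the matrix protein fibulin 1 (2.97 ± 0.29) rose with it, as did Loxl1 (3.08 ± 0.34). Fap (-0.31 ± 0.18), Aspn (0.57 ± 0.36), Fbln2 (0.16 ± 0.14) and P4ha2 (0.09 ± 0.12) did not pass. Matrix proteases and their inhibitors rose in 18 of 24 cases (median 1.64). Mmp14, a membrane collagenase, rose by 2.52 ± 0.27 and Serpinh1, the collagen chaperone, by 1.79 ± 0.15, while the brain proteases Mmp15 (0.14 ± 0.16) and Mmp24 (-0.2 ± 0.11) and the inhibitor gene Timp4 (0.04 ± 0.08) did not pass. Meningeal fibroblast genes rose in 16 of 18 cases (median 1.31). Slc47a1, a transporter of the leptomeninges, was at 2.33, 2.33 and 2.38 FPKM in sham and 10.3, 10 and 9.02 FPKM in Pushen (log2 fold change 1.99 ± 0.17, adjusted p = 0.00055), and Aldh1a2, which makes retinoic acid there, rose by 1.72 ± 0.16 and the fibroblast factor gene Foxc2 by 2.17 ± 0.21. Their list levels were 1.51, 1.54 and 1.23 in the Pushen libraries and 0.12, -0.09 and -0.03 in the sham libraries, and whether more meninges in the Pushen samples plays a part was not tested.

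Proteoglycans of the neural matrix did not move as a group. Of 16 tested chondroitin sulfate proteoglycan and perineuronal net genes none rose and 1 fell (median 0.03, which turned just below 0 with quantile normalization). The gene that fell was Tnr, tenascin R of perineuronal nets, at 13.3, 13.9 and 13 FPKM in sham and 11.1, 12 and 10.5 FPKM in Pushen (log2 fold change -0.32 ± 0.09, adjusted p = 0.035, not called without sham 1, sham 2, sham 3, PT 2, Pushen 1, Pushen 2 or Pushen 3, with a highest adjusted p of 0.12), and without PT 1 the list had 3 falls. Acan (-0.08 ± 0.29) and Vcan (0.1 ± 0.32), core proteins of the same family, and the link protein gene Hapln1 (-0.05 ± 0.16) did not pass.

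Vessel genes moved little. Among 24 endothelial and blood-brain barrier genes 7 rose (median 0.32), a count of 3 without sham 1 and 2 without sham 2, sham 3, Pushen 1 or Pushen 2. Angpt2, which loosens vessels, measured 0.31, 0.37 and 0.32 FPKM in sham and 1.14, 1.49 and 0.73 FPKM in Pushen (log2 fold change 1.68 ± 0.28, adjusted p = 0.004), and Cdh5, the endothelial cadherin, rose by 0.82 ± 0.14. The tight junction gene Cldn5 was at 24.9, 23.9 and 22.9 FPKM in sham and 30.3, 29.7 and 33.9 FPKM in Pushen and did not pass (0.32 ± 0.14, adjusted p = 0.16, called without PT 3, with a lowest adjusted p of 0.036). Ocln (0.26 ± 0.15), Kdr (0.13 ± 0.13), Flt1 (0.02 ± 0.07) and Plvap (0.33 ± 0.2) did not pass. Pericyte and smooth muscle genes rose in 5 of 15 cases (3 without sham 1, sham 2, Pushen 1 or Pushen 2, and 8 without Pushen 3). Anpep rose by 2.59 ± 0.29, Vtn by 0.59 ± 0.09 and Acta2, smooth muscle actin, by 1.02 ± 0.2, while Rgs5 (0.2 ± 0.13), Abcc9 (0.11 ± 0.1) and Kcnj8 (0.44 ± 0.23) did not pass. Adhesion molecules that hold leukocytes rose in 12 of 17 cases, with Icam1 at 2.72 ± 0.41, Vcam1 at 1.09 ± 0.17 and the leukocyte integrin gene Itgal at 2.92 ± 0.27. Vegfa, the main vessel growth factor, was at 11.7, 9.99 and 10 FPKM in sham and 9.95, 10.8 and 12.9 FPKM in Pushen and did not pass (0.02 ± 0.13, adjusted p = 0.95). Of 24 vascular growth factor genes 8 rose, with Angpt1 at 2.07 ± 0.28 and the co-receptor genes Nrp2 at 1.2 ± 0.15 and Nrp1 at 0.85 ± 0.17, and quantile normalization called 5.

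Transforming growth factor, BMP and IGF genes rose in 20 of 32 cases and fell in 1 (median 0.87). Igfbp5, which binds insulin-like growth factors, was at 23.5, 21.8 and 27.5 FPKM in sham and 118, 130.1 and 78.9 FPKM in Pushen (log2 fold change 2.1 ± 0.23, adjusted p = 0.00075). Tgfbi, a matrix protein induced by the factor, rose by 3.1 ± 0.34, Ltbp2, of a family that stores it in matrix, by 3.79 ± 0.48 and Bmp7 by 1.02 ± 0.14. H19, an imprinted non-coding RNA, rose by 3.58 ± 0.41. Inhba, the activin A subunit made by active neurons, went the other way, with 2.07, 1.84 and 1.79 FPKM in sham and 1.06, 1.04 and 1.3 FPKM in Pushen (log2 fold change -0.81 ± 0.14, adjusted p = 0.0057), and kept its call without any 1 library. Smad3 (-0.01 ± 0.07), Fst (-0.25 ± 0.24) and Igf1r (-0.19 ± 0.07) did not pass.

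Myelin genes were slightly higher, with a call that depended on single libraries. Of 24 tested genes 8 rose (median 0.64). The count was 1 without sham 1 or sham 2, 2 without Pushen 1, 4 without Pushen 2 or Pushen 3, and 18 without PT 3. In 23 of the 24 every Pushen library was above every sham library, against 23.1% of all genes. Mbp, myelin basic protein, was at 44, 42.8 and 62.1 FPKM in sham and 90.6, 68.8 and 83.8 FPKM in Pushen and did not pass (0.64 ± 0.24, adjusted p = 0.098, called without PT 3, with a lowest adjusted p of 0.041). Apod, an apolipoprotein of oligodendrocytes and fibroblasts, measured 27.5, 33.7 and 26.8 FPKM in sham and 223, 220.1 and 127 FPKM in Pushen (log2 fold change 2.62 ± 0.25, adjusted p = 0.00055). Tspan2, a tetraspanin of myelinating cells, had a narrow range over the Pushen libraries for its change, at 19.2, 17.6 and 23.6 FPKM in sham and 32.4, 31.8 and 31.6 FPKM in Pushen (log2 fold change 0.6 ± 0.17, adjusted p = 0.041, not called without sham 1, sham 2, Pushen 1, Pushen 2 or Pushen 3, with a highest adjusted p of 0.14). Of 14 progenitor genes 3 rose, against 13.5% of all tested genes. The count was 1 without sham 2 or Pushen 1, 6 without PT 1 and 7 without PT 3. C1ql1, a secreted synapse organiser made by these cells, rose by 1.24 ± 0.2, while the lineage gene Olig2 (0.24 ± 0.16) did not pass.

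Genes of neural progenitors rose in 7 of 17 cases, 4 without sham 1, sham 2 or Pushen 1. Id3, an inhibitor of differentiation, was at 9.41, 10.2 and 10.1 FPKM in sham and 46.7, 41.7 and 33.9 FPKM in Pushen (log2 fold change 1.97 ± 0.19, adjusted p = 0.00055), and Id1 and Id4 rose by 1.11 ± 0.18 and 1 ± 0.18. Igfbpl1, which marks neuroblasts and some microglia, measured 0.03, 0.05 and 0.06 FPKM in sham and 0.9, 1.25 and 0.31 FPKM in Pushen (log2 fold change 4.02 ± 0.65, adjusted p = 0.0037). The neuroblast gene Dcx did not pass (0 ± 0.89), nor did Dlx1 (0.03 ± 0.1) and Dlx2 (0.1 ± 0.21). Proliferation genes rose in 5 of 13 tested cases. The replication helicase genes Mcm3 (1.44 ± 0.27), Mcm6 (0.87 ± 0.14) and Mcm2 (0.64 ± 0.13) rose, while Mcm5 (-0.01 ± 0.17), Pcna (0.18 ± 0.08) and Ccna2 (-0.05 ± 0.29) did not pass and Mki67 was under the filter.

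Neuronal genes were lower by small amounts, and few calls held when a library was left out. The pan-neuronal list had a median of -0.35 with 2 of 22 genes called lower, and the presynaptic list a median of -0.35 with 7 of 24, against 2.73% of all genes. Excitatory postsynapse genes gave 2 of 26 (median -0.32) and GABAergic genes 7 of 27 (median -0.33). No gene tested in these 4 lists rose. Every Pushen library was below every sham library in 19 presynaptic, 17 excitatory, 18 GABAergic and 13 pan-neuronal genes, against 19.6% of all genes. The called counts moved with single libraries. Presynaptic calls numbered 3 without sham 1 or sham 3, 2 without sham 2, 1 without Pushen 1 or Pushen 2, 12 without Pushen 3 and 16 without PT 1. GABAergic calls numbered 1 without sham 1 or sham 2, 3 without sham 3, 0 without Pushen 1 or Pushen 2, 15 without PT 1 and 11 without PT 3. Pan-neuronal calls numbered 1 without sham 1 or PT 2, 0 without sham 2, sham 3, Pushen 1 or Pushen 2, 12 without Pushen 3 and 7 without PT 1. Excitatory calls numbered 0 without sham 1, sham 2, sham 3 or Pushen 2, 1 without Pushen 1 or PT 2, 8 without PT 1 and 9 without PT 3.

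Cplx2, complexin 2, which clamps the vesicle fusion machine, was the presynaptic gene of smallest p. It was at 239, 234 and 229.7 FPKM in sham and 181, 158 and 188 FPKM in Pushen (log2 fold change -0.48 ± 0.1, adjusted p = 0.011), and it kept its call without any 1 library. Its relative Cplx1 measured 334, 378 and 376 FPKM in sham and 267, 249 and 302 FPKM in Pushen (log2 fold change -0.48 ± 0.11, not called without sham 2, sham 3, Pushen 1 or Pushen 2, with a highest adjusted p of 0.075). Rims1, a scaffold of the release site, gave -0.53 ± 0.11 (adjusted p = 0.014, not called without sham 1, Pushen 1 or Pushen 2, with a highest adjusted p of 0.065). Rbfox3, the nuclear marker NeuN, stood at 57.9, 64.4 and 61.7 FPKM in sham and 46.9, 42.6 and 49.3 FPKM in Pushen (log2 fold change -0.47 ± 0.11, adjusted p = 0.02, not called without sham 2, sham 3, Pushen 1 or Pushen 2, with a highest adjusted p of 0.083). Pvalb, the calcium buffer of fast-spiking interneurons, measured 65.1, 64.2 and 68.8 FPKM in sham and 52.6, 43.6 and 54.3 FPKM in Pushen (log2 fold change -0.46 ± 0.12, adjusted p = 0.028, not called without sham 1, sham 2, sham 3, Pushen 1 or Pushen 2, with a highest adjusted p of 0.095). Gad1, which makes GABA, gave -0.44 ± 0.1 (adjusted p = 0.015, not called without sham 2, Pushen 1 or Pushen 2, with a highest adjusted p of 0.068). Sst, somatostatin, did not pass, at 183, 166 and 175 FPKM in sham and 123, 136 and 176 FPKM in Pushen (-0.33 ± 0.13, called without Pushen 3, with a lowest adjusted p of 0.006). The microtubule genes Map2 (-0.09 ± 0.18) and Mapt (0.14 ± 0.36), the glutamate transporter gene Slc17a7 (-0.52 ± 0.23), the GABA-synthesis gene Gad2 (-0.19 ± 0.09) and the interneuron genes Vip (-0.25 ± 0.22) and Calb1 (-0.21 ± 0.1) did not pass. Grin2a, an NMDA receptor subunit, was called lower (-0.61 ± 0.15, not called without sham 1, sham 2, sham 3, Pushen 1, Pushen 2 or Pushen 3, with a highest adjusted p of 0.086), while the AMPA receptor gene Gria1 was not (0.03 ± 0.13).

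**Figure D4:**
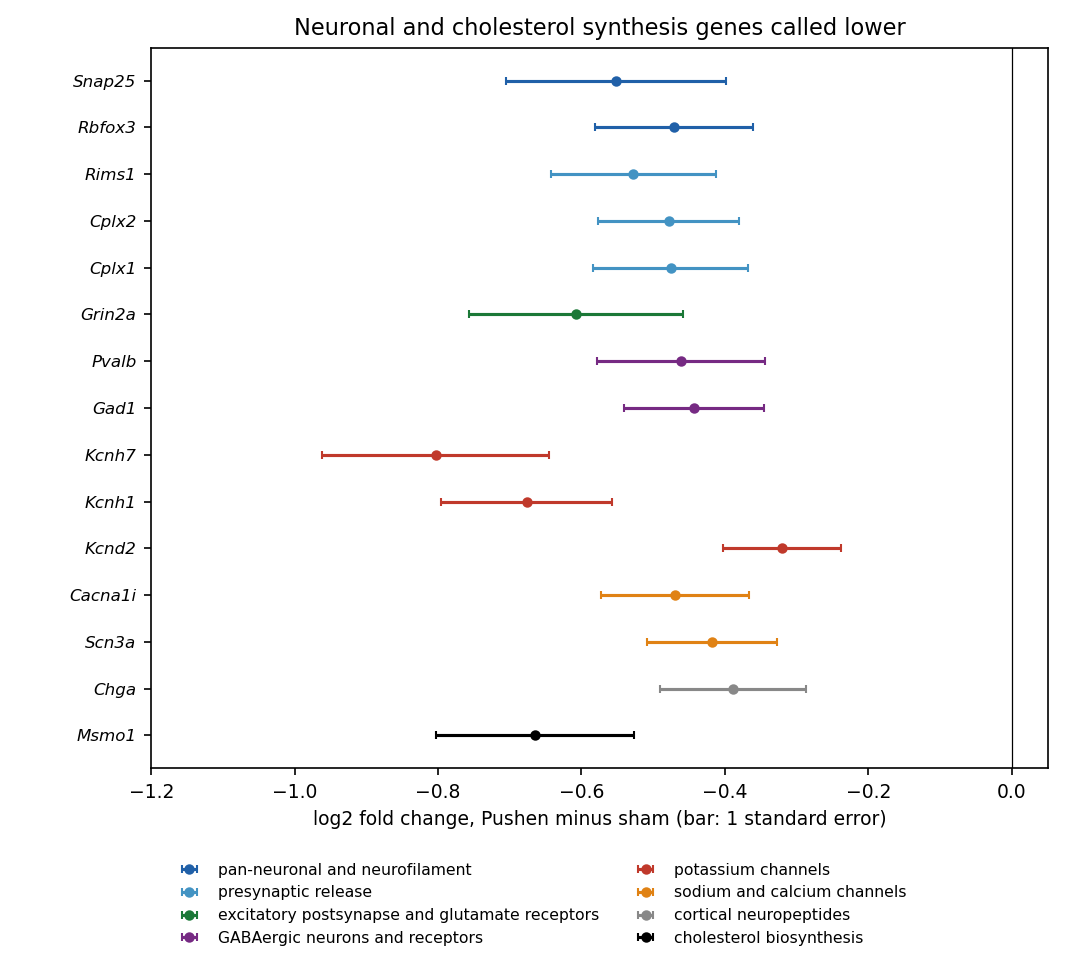
Each point is the log2 fold change, Pushen minus sham, of a gene named here and called lower in the pan-neuronal, synaptic, GABAergic, ion channel, neuropeptide and cholesterol synthesis lists, with a bar of 1 standard error on either side and colours by list. The points run from -0.8 for the potassium channel gene Kcnh7 to -0.32 for its fellow channel gene Kcnd2, so none reaches a 2-fold fall.

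In the potassium channel list and the sodium and calcium channel list every called member fell. Kcnh1 and Kcnh7, voltage-gated potassium channels of the ether-a-go-go family, were at 14.4, 15.8 and 14.9 and 10.8, 8.45 and 9.43 FPKM in sham and at 9.53, 9.82 and 10.2 and 5.5, 5.69 and 6.03 FPKM in Pushen. The Pushen values of Kcnh1 were within a narrow range, all below sham. Their log2 fold changes were -0.68 ± 0.12 (adjusted p = 0.0054) and -0.8 ± 0.16 (adjusted p = 0.0092), and both kept their calls without any 1 library. In all 6 of 28 potassium channel genes fell and none rose (median -0.39), a count of 2 without sham 1, sham 2, Pushen 1 or Pushen 2, 3 without sham 3 and 17 without PT 1. Kcnd2, an A-type channel, was nearly level over the Pushen libraries, at 15.6, 15.5 and 15.2 FPKM against 18.9, 19.3 and 17 FPKM in sham (log2 fold change -0.32 ± 0.08, adjusted p = 0.029, not called without sham 1, sham 2, Pushen 1, Pushen 2 or Pushen 3, with a highest adjusted p of 0.11). Kcna1 (-0.17 ± 0.18) did not pass. Sodium and calcium channel genes fell in 6 of 26 cases and none rose (median -0.29), a count of 2 without sham 1, 1 without sham 2 or Pushen 1, 3 without sham 3 and 0 without Pushen 2. Scn3a, a sodium channel, gave -0.42 ± 0.09 (adjusted p = 0.014, not called without sham 2 or Pushen 2, with a highest adjusted p of 0.061), while Scn1a (-0.15 ± 0.53), Scn2a (-0.14 ± 0.26) and Cacna1c (0.04 ± 0.12) did not pass.

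Among neuropeptide genes 1 of 20 fell, chromogranin gene Chga (-0.39 ± 0.1, not called without sham 1, sham 2, sham 3, PT 2, Pushen 1 or Pushen 2, with a highest adjusted p of 0.12), and the count was 6 without Pushen 3, 2 without PT 1 or PT 3 and 0 without any sham library, Pushen 1, Pushen 2 or PT 2. Bdnf, the neurotrophin, was at 2.84, 2.61 and 2.7 FPKM in sham and 2.27, 2.07 and 2.85 FPKM in Pushen and did not pass (-0.24 ± 0.3, adjusted p = 0.61). The peptide genes Penk (0.2 ± 0.63), Tac1 (0 ± 0.61) and Cartpt (0.02 ± 0.23) did not pass. Of 19 cortical layer genes 1 rose and 1 fell. The gene that rose was Ccn2, a matrix growth factor of the deepest layer (0.54 ± 0.12, not called without sham 1, sham 2 or Pushen 2, with a highest adjusted p of 0.063). The gene that fell was Foxp1, a forkhead factor of middle and deep layers, at 2.11, 6.88 and 5.76 FPKM in sham and 2.11, 1.98 and 1.71 FPKM in Pushen (log2 fold change -1.4 ± 0.34, not called without sham 2, sham 3, Pushen 1, Pushen 2 or Pushen 3, with a highest adjusted p of 0.087). Sham library 1 stood at the Pushen level there. Without PT 1 or PT 3 the list had 4 falls, and Fezf2 (-0.07 ± 0.24), Bcl11b (0.08 ± 0.22) and Tle4 (-0.06 ± 0.12) did not pass.

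Other large falls were in genes of mixed function. Xkr4, a scramblase relative, was at 1.34, 1.1 and 1.86 FPKM in sham and 0.62, 0.5 and 0.67 FPKM in Pushen (log2 fold change -1.33 ± 0.24, adjusted p = 0.0066), and Fam110b, a centrosomal protein, at 2.56, 2.94 and 2.67 FPKM in sham and 1.28, 1.57 and 1.14 FPKM in Pushen (log2 fold change -1.1 ± 0.19, adjusted p = 0.0054). Both kept their calls without any 1 library, unlike the other 10 of the 12 largest falls. Rpe65, the retinoid isomerase of the eye, measured 1.2, 0.96 and 1.07 FPKM in sham and 0.33, 0.26 and 0.19 FPKM in Pushen (log2 fold change -2.13 ± 0.54, adjusted p = 0.027, not called without sham 1, sham 2, sham 3, Pushen 1, Pushen 2 or Pushen 3, with a highest adjusted p of 0.092). Stxbp5l, a brake on vesicle release, gave -1.31 ± 0.35 (not called without sham 1, sham 2, sham 3, Pushen 1, Pushen 2 or Pushen 3, with a highest adjusted p of 0.1), and Kcna3, a potassium channel, -1.14 ± 0.27 (not called without sham 1, sham 2, sham 3, Pushen 1 or Pushen 2, with a highest adjusted p of 0.082). Maml3, a Notch coactivator, gave -1.03 ± 0.22 (not called without sham 2, with a highest adjusted p of 0.061) and Il12a, a cytokine subunit, -1.06 ± 0.23 (not called without sham 2, with a highest adjusted p of 0.058). By the amount of RNA lost, Snap25 came after the calmodulin gene Calm2. Calm2 measured 857, 784 and 822 FPKM in sham and 659.5, 580.4 and 704 FPKM in Pushen (log2 fold change -0.41 ± 0.11, not called without sham 1, sham 2, sham 3, PT 2, Pushen 1 or Pushen 2, with a highest adjusted p of 0.14). Snap25 measured 433, 412 and 379 FPKM in sham and 271, 268 and 334 FPKM in Pushen (log2 fold change -0.55 ± 0.15, not called without sham 1, sham 2, sham 3, PT 2, Pushen 1 or Pushen 2, with a highest adjusted p of 0.14). Kif5a, the axonal kinesin, measured 440.3, 448 and 490.0 FPKM in sham and 352, 353 and 381 FPKM in Pushen (log2 fold change -0.41 ± 0.09, not called without sham 3, Pushen 1 or Pushen 2, with a highest adjusted p of 0.082).

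Stress-induced early genes were partly higher. Of 23 tested genes 6 rose, against 13.5% of all tested genes. Atf3, an injury-induced factor, was at 0.12, 0.27 and 0.21 FPKM in sham and 5.8, 5.12 and 1.41 FPKM in Pushen (log2 fold change 4.28 ± 0.57, adjusted p = 0.0015). Fos was at 3.8, 4.99 and 5.83 FPKM in sham and 11.3, 9.22 and 9.9 FPKM in Pushen (log2 fold change 0.99 ± 0.19, adjusted p = 0.0079), and Jun rose by 0.84 ± 0.15 and Egr2 by 1.65 ± 0.31. The activity genes of neurons Arc (-0.16 ± 0.34), Egr1 (0.12 ± 0.29), Nr4a1 (-0.17 ± 0.24) and Fosb (0.03 ± 0.23) did not pass. Of 33 neurotrophin and axon growth genes 5 rose and 2 fell (3 rose without sham 1, sham 2 or Pushen 1, none fell without sham 1 or sham 2, 1 fell without sham 3, PT 2, Pushen 1 or Pushen 2, and 7 fell without Pushen 3). The share that rose was near the 13.5% of all tested genes. Cntf, ciliary neurotrophic factor, rose by 1.88 ± 0.35. Gap43, the growth cone protein, was at 69.9, 79.3 and 74.2 FPKM in sham and 53.3, 57.8 and 86.3 FPKM in Pushen and did not pass (-0.24 ± 0.18, adjusted p = 0.39, called without Pushen 3, with a lowest adjusted p of 0.018). Robo2, a guidance receptor, was called lower (-0.43 ± 0.09, not called without sham 1 or sham 2, with a highest adjusted p of 0.063), and the myelin inhibitor Rtn4 was not called (-0.12 ± 0.16).

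Lipid genes moved in opposite directions by role. Cholesterol efflux and storage genes rose in 21 of 25 cases (median 1.58, the same with Apoc2 at its bound), and cholesterol synthesis genes fell in 7 of 24 with none higher (median -0.33). Abca1, which exports cholesterol, was at 3.3, 3.4 and 3.71 FPKM in sham and 16.4, 18.6 and 7.35 FPKM in Pushen (log2 fold change 1.96 ± 0.3, adjusted p = 0.0028), and Plin2, which coats lipid droplets, at 0.77, 0.89 and 1.1 FPKM in sham and 9.44, 10.6 and 3.32 FPKM in Pushen (log2 fold change 2.99 ± 0.41, adjusted p = 0.0017). Apoc2, with no sham count, was at least 49.7-fold higher, and Ch25h, which makes an oxysterol, rose by 3.27 ± 0.45. On the synthesis side, Msmo1, a sterol oxidase, measured 9.26, 8.8 and 9.33 FPKM in sham and 4.91, 6.23 and 6.92 FPKM in Pushen (log2 fold change -0.67 ± 0.14, adjusted p = 0.012). It was called in every fit that left out 1 library, while the list's count was 2 without sham 1, 4 without sham 2 or sham 3 and 3 without Pushen 1 or Pushen 2. Fdft1, which makes squalene, did not pass (0.09 ± 0.12).

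Iron genes rose in 12 of 21 cases and fell in 1. Hmox1, which frees iron from heme, measured 1.86, 2.14 and 1.91 FPKM in sham and 19.8, 16.9 and 5.55 FPKM in Pushen (log2 fold change 2.76 ± 0.4, adjusted p = 0.0022), and Cp, ceruloplasmin, rose by 1.94 ± 0.28. Slc11a1, an iron transporter of phagosomes, rose by 3.52 ± 0.41. Tfrc, the transferrin receptor for iron uptake, was the one gene that fell, at 23.2, 20.7 and 19.7 FPKM in sham and 10.6, 12.4 and 14.4 FPKM in Pushen (log2 fold change -0.83 ± 0.16, adjusted p = 0.0084), and was called without any 1 library. Gpx4 (0.13 ± 0.1) and Acsl4 (0.1 ± 0.23), on either side of ferroptosis, did not pass. Antioxidant genes rose in 13 of 27 cases. Gpx3, a secreted peroxidase, rose by 4.28 ± 0.47 and Nfe2l2, which encodes NRF2, by 1.58 ± 0.21, while the glutathione synthesis genes Gclc (0.03 ± 0.06) and Gclm (0.01 ± 0.12) did not pass and Sod2 was called lower (-0.33 ± 0.09, not called without sham 1, sham 2, sham 3, PT 2, Pushen 1, Pushen 2 or Pushen 3, with a highest adjusted p of 0.11).

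Metallothionein and glucocorticoid-response genes rose in 10 of 16 cases, with Mt1 at 1.06 ± 0.16, Mt2 at 1.43 ± 0.22 and the kinase gene Sgk1 at 1.08 ± 0.2, and with the glucocorticoid marker Tsc22d3 not passing (0.36 ± 0.16). Heat shock genes rose in 4 of 19, against 13.5% of all tested genes, with a list median of 0.05. The small heat shock genes Hspb1 (1.72 ± 0.27) and Hspb8 (2.02 ± 0.21) and the co-chaperone gene Bag3 (1.41 ± 0.19) rose, and the large chaperone genes Hspa8 (-0.16 ± 0.15), Hsp90aa1 (-0.11 ± 0.24) and Hspd1 (-0.13 ± 0.09) did not pass. Energy genes stayed close to sham. Of 28 nuclear genes of oxidative phosphorylation 1 fell, Atp5b (-0.31 ± 0.09, not called without sham 1, sham 2, sham 3, PT 2, Pushen 1 or Pushen 2, with a highest adjusted p of 0.16), and none of the 13 mitochondrial genome genes passed. The nuclear count was 4 without Pushen 3 or PT 1 and 2 without PT 3. Glycolysis genes rose in 3 of 23 cases, with Hk2 at 1.69 ± 0.21, and 1 fell, the neuronal glucose carrier gene Slc2a3 (-0.35 ± 0.1, not called without sham 1, sham 2, sham 3, PT 2, Pushen 1 or Pushen 2, with a highest adjusted p of 0.15). The share that rose was near the 13.5% of all tested genes, and 5 fell without Pushen 3 and 2 without PT 1 or PT 3. That list's median was -0.17 and 0 with quantile normalization. Clock genes fell in 3 of 18 cases and rose in 1 (Bhlhe41, 0.61 ± 0.13, not called without Pushen 1 or Pushen 2, with a highest adjusted p of 0.06), with Clock at -0.65 ± 0.17 (not called without sham 1, sham 2, Pushen 1, Pushen 2 or Pushen 3, with a highest adjusted p of 0.1) and Arntl not passing (0.1 ± 0.1). Without sham 1, sham 2 or Pushen 1 no clock gene fell, without sham 3, PT 2 or Pushen 2 it was 1, and without PT 1 or PT 3 it was 5. Cytosolic ribosomal protein genes rose in 10 of 30 cases by a small amount (median 0.28), against 13.5% of all tested genes. In 23 of the 30 every Pushen library was above every sham library, against 23.1% of all tested genes. The number that rose was 6 without sham 2, sham 3, Pushen 1 or Pushen 2 and 18 without PT 1, and library size alone called 18. Rpl10 rose by 0.56 ± 0.1.

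S100 and annexin genes rose in 11 of 18 cases, with Anxa1 at 3.41 ± 0.33, Anxa2 at 2.47 ± 0.25 and S100a6 at 1.39 ± 0.17, while Anxa6 (-0.02 ± 0.07) and Anxa7 (0.05 ± 0.15) did not pass. Of 21 STAT, JAK and SOCS genes 9 rose and 1 fell (Socs5, -0.34 ± 0.1, not called without sham 1, sham 2, sham 3, PT 2, Pushen 1 or Pushen 2, with a highest adjusted p of 0.15). Stat3, the factor of interleukin 6 signalling, was at 3.46, 3.83 and 3.74 FPKM in sham and 8.04, 8.4 and 5.8 FPKM in Pushen (log2 fold change 0.94 ± 0.17, adjusted p = 0.0061), and Stat6, the factor of interleukin 4 signalling, rose by 1.06 ± 0.18. Jak1 (-0.06 ± 0.1), Jak2 (0.06 ± 0.08) and Stat5b (0.15 ± 0.08) did not pass. Purinergic receptors and the enzymes that break down their ligands rose in 8 of 17 cases (5 without Pushen 2), led by P2ry6 (2.5 ± 0.28), which triggers phagocytosis, and P2rx7 (1.22 ± 0.21), an ATP-gated channel, while the adenosine receptor gene Adora1 (-0.08 ± 0.16) did not pass.

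Genes of neighbouring regions and of the ventricle lining were followed as well, since a sample can hold some of that tissue. The choroid plexus gene Ttr, transthyretin, was at 2.09, 11.3 and 16.6 FPKM in sham and 23.6, 608 and 146 FPKM in Pushen, so Pushen library 2 stood far above the other libraries, and it did not pass (4.64 ± 1.59, adjusted p = 0.08, called without PT 1, with a lowest adjusted p of 0.034). Of 10 choroid plexus genes 3 rose, 1 without sham 2 and 9 without PT 1. Ependyma and motile cilia genes rose in 8 of 13 cases, a count of 2 without sham 1, sham 2, Pushen 1 or Pushen 2 and 4 without PT 2. Foxj1, the factor for motile cilia, measured 1.05, 1.42 and 1.91 FPKM in sham and 7.94, 8.98 and 5.35 FPKM in Pushen (log2 fold change 2.28 ± 0.38, adjusted p = 0.0042). Of 15 striatal genes none rose and 1 fell, Foxp1, given above among the layer genes, with 2 lower and 2 higher without PT 1. Of 13 thalamic and hippocampal genes 5 rose, with Prkcd, a thalamic kinase, at 2.07 ± 0.3 (3 without sham 1, sham 3 or Pushen 1, and 2 without sham 2 or Pushen 2). The list levels of choroid plexus were -0.32, -0.03 and 0.34 in sham and 1.52, 4.06 and 2.14 in Pushen, those of ependyma -0.57, -0.25 and 0.82 and 2.05, 2.4 and 1.43, and those of striatum -0.14, 0 and 0.15 and 0.52, 0.48 and 0.03. The part of uneven tissue in the other results was not tested.

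Some single genes stood out by their spread over the Pushen libraries, taken relative to the fold change among called protein-coding genes of at least 5 FPKM in Pushen. Tmem170b, a membrane protein of unknown role here, was the widest, at 1.06, 1.43 and 1.15 FPKM in sham and 10.5, 1.15 and 5.74 FPKM in Pushen (log2 fold change 2.19 ± 0.62, adjusted p = 0.042, not called without sham 1, sham 2, sham 3, PT 2, PT 3, Pushen 1 or Pushen 3, with a highest adjusted p of 0.15, and a change of 1.46 without Pushen 1). Its library 2 was at the sham level, so its groups overlapped. Csrnp3, a nuclear factor, was the narrowest, at 8.29, 7.73 and 7.23 FPKM in sham and 5.27, 5.27 and 5.28 FPKM in Pushen (log2 fold change -0.62 ± 0.16, not called without sham 1, sham 2, sham 3, PT 2, Pushen 1, Pushen 2 or Pushen 3, with a highest adjusted p of 0.1). Cacna1i, a T-type calcium channel gene, came close to it, at 13.6, 16.2 and 15.2 FPKM in sham and 11.3, 11.3 and 11.4 FPKM in Pushen (log2 fold change -0.47 ± 0.1, not called without sham 2, Pushen 1 or Pushen 2, with a highest adjusted p of 0.067). In both, the Pushen values hardly differed and all lay below sham.

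The values of the PT libraries, from infarcted mice on ultrapure water, stand beside these with the same sham libraries as reference, so the changes against sham are not independent. Between Pushen and PT no gene was called (0%) by edgeR's quasi-likelihood test. At an unadjusted p under 0.05 there were 1086 genes, and DESeq2 called 49. Side by side, the median log2 change against sham was 2.89 in Pushen and 3.08 in PT for disease-associated microglia, 2.71 and 2.94 for reactive astrocyte genes, 2.64 and 2.95 for complement and -0.35 and -0.45 for presynaptic genes. For type I interferon genes it was 3.26 in Pushen and 2.56 in PT, and for the interferon-induced GTPases 3.08 and 2.47. The list levels of single libraries overlapped there, at 3.04, 3.62 and 2.92 in Pushen and 3.005, 1.93 and 2.71 in PT for type I genes. For the GTPases they were 2.81, 3.67 and 2.92 in Pushen and 3.007, 2.25 and 2.6 in PT. Gfap was 4.39 above sham in PT and 3.95 in Pushen, Spp1 4.87 and 4.38, and Zbp1 6.98 and 7.65. Gm10273, the gene of smallest p between Pushen and PT, was at 0.27, 0.59 and 0.35 FPKM in sham, 0.61, 0.46 and 0.4 FPKM in PT and 7.48, 8.25 and 2.77 FPKM in Pushen. It rose against sham (3.83 ± 0.47, adjusted p = 0.0011), and its Pushen minus PT log2 fold change of 3.59 ± 0.46 had an adjusted p of 0.38. A p above the threshold does not show that Pushen and PT tissue were alike.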

How the data were processed

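Libraries were made with an Illumina TruSeq RNA kit that does not mark strand, per the labels' protocols, so reads of overlapping genes on opposite strands cannot be told apart. The submitters' processing notes name Bowtie 0.12.2 and the build mm8. Gene positions in the deposited table nevertheless follow GRCm38: of 55141 identifiers also in GENCODE M21, 94.2% (51957) have identical start and end. The values tested are raw read counts per gene, as deposited by the authors. Which program counted them, and how, is not given in the sources used here. It also gives FPKM, which the authors scaled to gene length and library size, and which was used for levels and for the expression filter.

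Counts were fitted with edgeR 4.0.16 in R 4.3.3 (TMM scaling, glmQLFit and glmQLFTest, prior count 2), with all 9 libraries in 1 fit and the contrast Pushen minus sham, over genes averaging 0.5 FPKM or more. Adjusted p-values are Benjamini-Hochberg over all 16740 tested genes, with a threshold of 0.05. Standard errors were taken as the size of the log2 fold change over the root of the F statistic. Whether groups overlapped, and the list levels, were taken from TMM-scaled log2 counts. The script was tested on simulated data. The 6 sham and Pushen libraries held 57437342 to 73499628 counts each.

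The gene lists and the members were chosen with earlier results of these data known. Named genes are the 12 largest rises and falls, the 10 largest gains and losses in FPKM, up to 6 called list members of smallest p, list members that did not pass or went the other way, the 8 called genes widest and the 8 narrowest over the Pushen libraries, 20 fixed genes and the 8 of smallest p against PT. Some genes under this rule are not reported here. Genes with no sham count are given as bounds, with 3 counts per sham library as the floor. Abca1, Bst2, Icam1, Isg15 and Vcam1 fall outside that rule and were chosen after their values were seen. Promoters came from RefSeq tables of GRCm38.p6, and 11252 of 16718 tested gene symbols matched. Replicate numbers were taken not to pair samples, as same-numbered sham and Pushen libraries deviated with correlations of -0.0938, -0.0791 and -0.109. Alternatives were DESeq2 1.42.0, limma 3.58.1, other scalings and filters, a replicate block and leaving out libraries.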

Additional observations from a re-analysis of the deposited data

How the results depend on the processing

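Of 2718 genes called between Pushen and sham, the number fell to 999 when a change beyond 1.5-fold was tested (glmTreat), with 997 higher and 2 lower. With a replicate block, which pairs same-numbered libraries, the 6 sham and Pushen libraries gave 1713 genes, 1442 higher and 271 lower, and the 9 libraries gave 242 lower. Samples share only a number there: 0 of 3 sham libraries correlated best with their own number. Leaving out 1 library gave 1538 to 3736 called genes, 1431 to 2568 higher and 84 to 1168 lower. The 457 lower genes became 239 with library size alone, 1254 with quantile normalization, 1104 with DESeq2, 219 and 225 with limma on log2(FPKM + 0.1) and log2(FPKM + 1), and 1239 with only the 6 libraries. Genes changed at least 2-fold numbered 1334 and became 703 with limma on log2(FPKM + 1). Between Pushen and PT the count of 0 became 49 with DESeq2, 0 to 5 with 1 library left out and 2 without Pushen 2 and PT 1, an alternative added after the data were seen. The cause of these differences was not tested. Of 369 tested genes named in the text 240 were called. None of the called ones changed direction under any of 23 alternatives, and 174 kept their call under all of them. The 6 libraries hold 57437342 counts or more each, and what a greater depth would call was not tested.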
